A study of Mus musculus with 9 samples.

Results

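The response of RAW 264.7 cells to lipopolysaccharide (LPS) was measured by comparing the gene counts of the 3 libraries labelled LPS with those of the 3 labelled vehicle, which are 6 of the 9 libraries in the series. RAW 264.7 is an established mouse macrophage line. Vehicle cells received solvent without LPS, and LPS cells received LPS at 300 ng/mL for 6 h, so the data cover a single line, a single dose and a single time. The other 3 libraries came from cells given calycosin at 100 µg/mL for 24 h and then the same LPS exposure, and they entered the filter on low counts, the scaling and the shared estimate of the spread between replicates, but not the contrast. The labels call the replicates biological but do not say whether they came from separate passages or days, so p-values measure the spread between these cultures. Polyadenylated RNA was sequenced from whole cultures, in which a change in the number of responding cells and a change in RNA per cell cannot be told apart.

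LPS is a component of the outer membrane of Gram-negative bacteria. Macrophages bind it through CD14 and the complex of TLR4 with MD-2, and signal through MyD88 to NF-kappaB and the MAP kinases and through TRIF to IRF3. The first arm is known for cytokines, chemokines and feedback inhibitors, and the second for interferon beta, which is secreted and acts back on the cell through JAK-STAT signalling to induce a further set of antiviral and antimicrobial genes. Activated macrophages are also known to rewire metabolism and to leave the cell cycle.

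The libraries held 31285425 to 35138718 counts in vehicle cells and 27784737 to 31038241 in LPS cells, and vehicle replicate 3 stood apart from the other vehicle libraries. The share of counts in mitochondrially encoded genes was 3.79% in vehicle replicate 1, 3.68% in replicate 2 and 21.9% in replicate 3, against 13.0% to 14.7% in the LPS libraries. Over 8595 well-expressed genes, the root mean square log2 difference was 0.23 between vehicle replicates 1 and 2, 0.62 to 0.63 between vehicle replicate 3 and these, 0.28 to 0.35 among LPS libraries, and 1.49 to 1.63 between an LPS and a vehicle library. All 15 macrophage markers examined were tested, and 7 rose while 4 fell, beside 27.3% and 28.9% of all genes tested. On library totals, without the scaling described below, 2 of these markers were higher and 6 lower. Among them Csf1r, the receptor for macrophage colony-stimulating factor, fell from 536, 526 and 369 to 124, 127 and 129.8 CPM, and Mpeg1, the pore-forming perforin-2, rose from 374, 418 and 327 to 1591, 1656 and 1619 CPM. Of 32 markers of T cells, B cells, neutrophils, fibroblasts, epithelium and endothelium, only Lck, Pax5 and Cdh5 had enough counts to be tested and all 3 rose, while Cd3e, Cd3d, Ms4a1, Ly6g, Dcn and Epcam had 0 counts in all 6 libraries. Pax5, a B cell transcription factor, varied widely among LPS libraries, with 0.0402, 0.123 and 0.0608 CPM in the vehicle and 9.33, 43.8 and 30.2 CPM in the LPS replicates. Summed over each list, T cell markers had 6.63 to 9.52 CPM in vehicle and 26.4 to 28.4 CPM in LPS libraries, nearly all of it Lck, and neutrophil, fibroblast and epithelial markers had at most 1.73 CPM in any library. The part of other cell types in the results was not tested.

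Levels below are CPM, counts scaled to the library's size with edgeR's TMM factors (trimmed mean of M values), and are listed for replicates 1, 2 and 3 in that order, or as mean ± SD over the 3 libraries of a group. A gene rose or fell where edgeR's quasi-likelihood test gave a Benjamini-Hochberg adjusted p under 0.05 over all genes tested. Fold changes are LPS over vehicle from that fit, and a fold against a group with 0 counts is a lower bound that sets that group at 3 counts per library. Gene coordinates are from GENCODE M21 (GRCm38, the mm10 build that the submitters' processing notes name).

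LPS changed most genes that could be tested. Of 14458 genes, 3954 (27.3%) rose and 4180 (28.9%) fell, together 56.3%. At least 2-fold, 2361 (16.3%) rose and 2501 (17.3%) fell, and the balance turned toward rises as the fold grew. At least 4-fold the counts were 1094 and 893, at least 16-fold 408 and 143, and at least 64-fold 193 and 63. The median log2 fold change of all genes tested was -0.07, with quartiles of -0.78 and 0.67. All 3 LPS libraries lay above all 3 vehicle libraries for 29.5% of the genes tested and below them for 31.3%.

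The split between rises and falls depended on the scaling. TMM factors were 1.42, 1.42 and 1.05 for the vehicle libraries and 0.79 to 0.81 for the LPS libraries. Without them, on library totals, 1879 genes (13.0%) were higher and 7744 (53.6%) lower, and with limma on log2(TPM + 1) 1476 (10.2%) were higher and 6962 (48.2%) lower. The median shift of a gene's log2 fold change was -0.70 with both, and the median over all genes was -0.77 and -0.61. Rises made up 19.5% and 17.5% of calls, against 48.6% with TMM. A list's counts with TMM belong beside 27.3% higher and 28.9% lower of all genes tested. Its counts on library totals belong beside 13.0% higher and 53.6% lower, and its counts with TPM beside 10.2% and 48.2%. Of the 3954 rises, 869 had the opposite sign on library totals, so a small rise is a rise relative to the other genes tested. Of the genes named in the text, Spp1, Cd14, Psmb9, Fth1, H2-Ab1, Rbl1, Msh3 and Wrn lost their call on library totals. With TPM the same 8 and Cd74, Ctsl, Hsp90aa1 and Polb lost it. Without vehicle replicate 3 the counts were 4451 higher and 5090 lower, and with it as the only vehicle library they were 2831 and 2813. Against vehicle replicate 3 alone, the named genes that lost their call were Fth1, Ftl1, Ctsd, Ddit4, Ndufa2, Rps21, H2-Ab1, H2-DMb2, Il34, Vegfa, Tnfsf14, Rbl1 and Wrn.

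**Figure D1:**
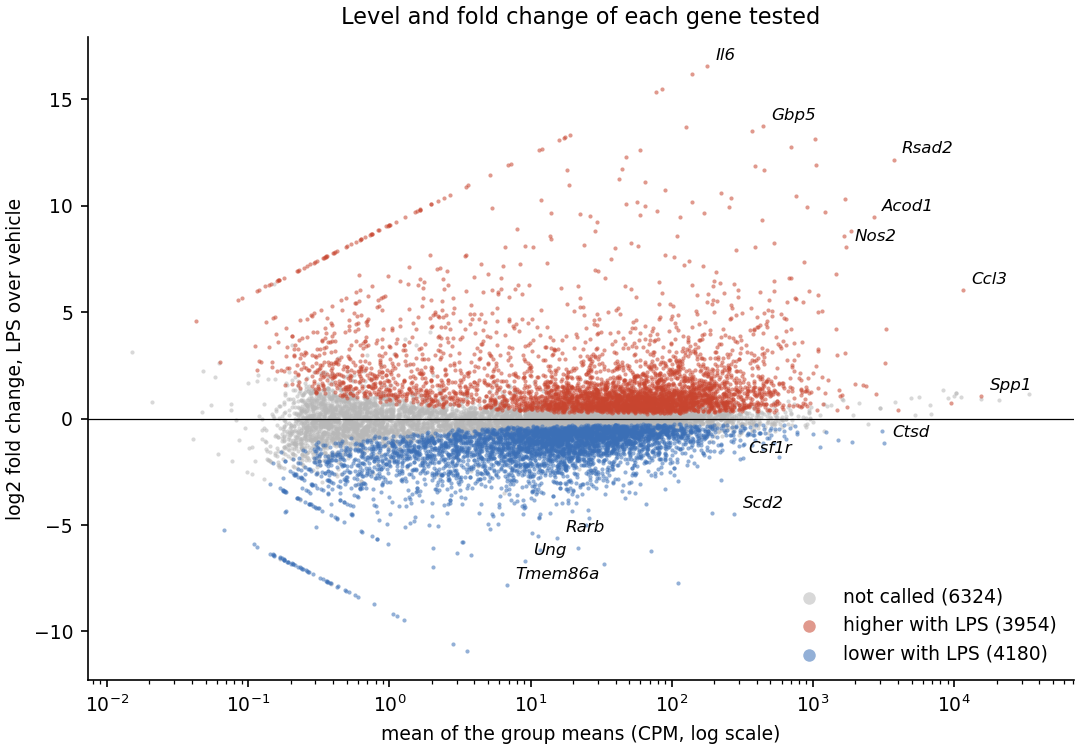
Each point is 1 of the 14458 genes tested, placed by the mean of its group means (horizontal, CPM on a log scale) and its log2 fold change of LPS over vehicle (vertical), with genes called higher in red, lower in blue and not called in grey. The 3954 red points reach further from 0 than the 4180 blue ones, and the straight edges at top and bottom are genes with 0 counts in 1 group, whose fitted fold depends on the model's prior count.

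The genes that rose at least 2-fold came to fill a large part of the RNA pool. The direction and a part of the size follow from how they were chosen, by a call and a 2-fold limit in these same libraries. They held 14.0%, 13.8% and 13.2% of the vehicle libraries' counts and 38.8%, 38.5% and 38.8% of those with LPS, while the genes that fell at least 2-fold went from 12.9%, 13.1% and 7.78% to 2.36%, 2.32% and 2.45%. Without mitochondrially encoded genes, raised genes held 14.5%, 14.3% and 16.8% of counts in the vehicle libraries, so vehicle replicate 3 stood highest of these. The RNA pool was also spread over fewer genes. Setting mitochondrially encoded genes aside, 984, 980 and 823 genes made up 50% of counts at rest, and 516, 520 and 543 after LPS. Genes detected with at least 1 count numbered 19010 to 20207 in vehicle and 18020 to 18376 in LPS libraries, which were also the shallower ones.

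**Figure D2:**
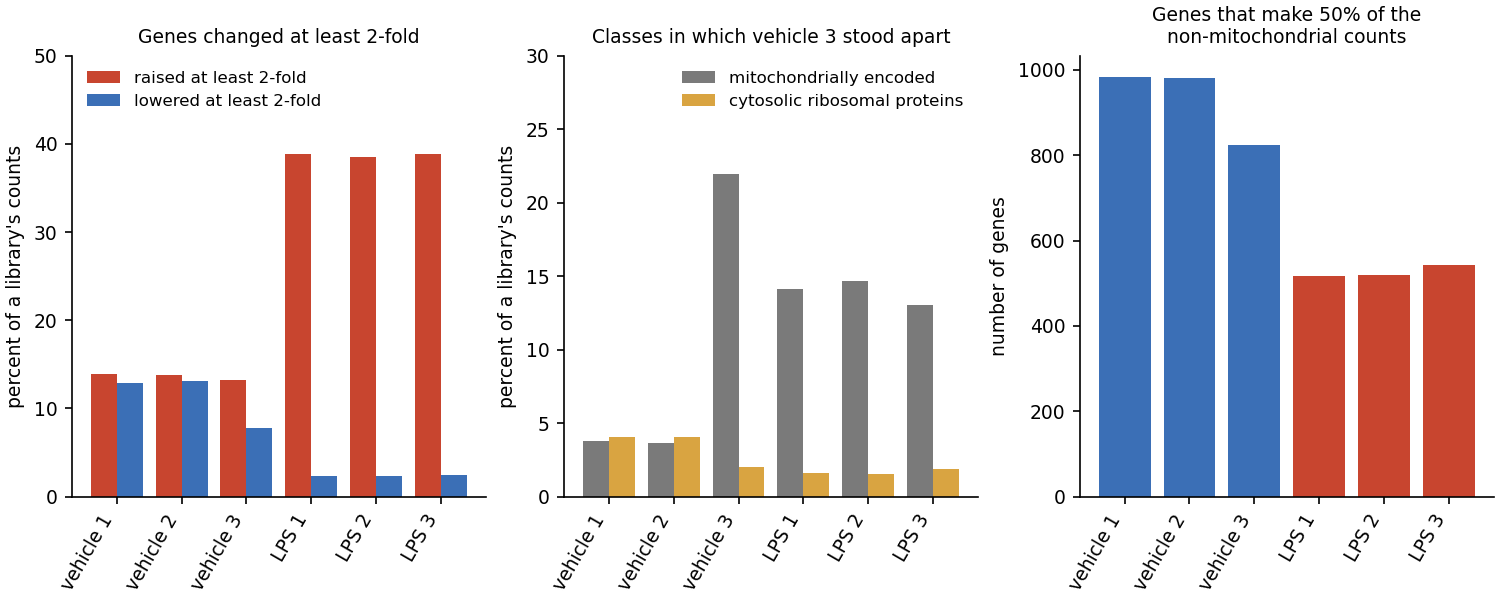
Bars give, for each of the 6 libraries, the percent of counts in genes raised or lowered at least 2-fold (left), the percent in mitochondrially encoded genes and cytosolic ribosomal protein genes (centre), and the number of genes that make up 50% of the non-mitochondrial counts (right). Raised genes went from 13.2% to 14.0% of counts in vehicle to 38.5% to 38.8% with LPS. Vehicle replicate 3 had a mitochondrial share of 21.9%, above every LPS library. It held 13.2% of counts in raised genes, and 7.78% in lowered genes, between the other vehicle libraries and the LPS libraries. Both gene sets were chosen with it in the vehicle group, which favours a place near the other vehicle libraries.

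The rise was led in absolute terms by a chemokine. Ccl3, which draws monocytes and neutrophils, had 251, 221 and 559 CPM in the vehicle replicates and 23779.8, 22890.1 and 21801 CPM with LPS, a 66.4-fold rise (log2 6.05, SE 0.409, adjusted p = 1.5e-06 by edgeR). Even its highest vehicle library, replicate 3, was far below the lowest LPS library. Together the 15 protein-coding genes with the largest gain in CPM held 2.57%, 2.44% and 2.38% of counts before and 8.55%, 8.20% and 8.28% after LPS. They included 3 genes that were already abundant at rest. Spp1, which encodes the secreted matrix protein osteopontin, went from 9668, 9059 and 11380.0 to 21202, 19634 and 22219 CPM (2.09-fold), and Actb, cytoplasmic actin, from 745, 743 and 1245 to 5619, 5240.3 and 5774 CPM (6.09-fold). Fth1, the ferritin heavy chain that stores iron, rose 1.66-fold, from 7163 ± 1233 to 11873 ± 629 CPM, but its log2 fold change was 0.05 on library totals and -0.034 with TPM.

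Promoter sequences are shown for 6 genes that the results return to, chosen with their values known, to let the regulatory letters be read beside the measurements. Each is the 250 bases before the RefSeq transcription start (GRCm38.p6), written 5′ to 3′ on the gene's own strand. Capitals mark matches, on either strand, to the interferon-stimulated response element (ISRE, searched as GAAA, any 2 bases, GAAA), the NF-kappaB consensus, the STAT gamma-activated site (GAS, TTCNNNGAA) in Irf1 only, and the E2F site (GCGGGAA) in E2f7 only. Where matches touch or overlap, the capitals run together.
Cxcl10: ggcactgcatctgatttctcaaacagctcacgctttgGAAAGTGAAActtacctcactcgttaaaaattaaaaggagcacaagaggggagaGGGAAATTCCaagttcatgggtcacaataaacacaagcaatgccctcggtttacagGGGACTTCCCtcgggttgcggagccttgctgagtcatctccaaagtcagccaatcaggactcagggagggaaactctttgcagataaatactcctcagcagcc
Gbp5: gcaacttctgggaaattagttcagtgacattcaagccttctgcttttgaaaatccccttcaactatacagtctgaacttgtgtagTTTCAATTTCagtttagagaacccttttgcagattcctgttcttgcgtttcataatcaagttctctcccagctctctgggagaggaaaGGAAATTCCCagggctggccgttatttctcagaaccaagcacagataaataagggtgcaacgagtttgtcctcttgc
Isg15: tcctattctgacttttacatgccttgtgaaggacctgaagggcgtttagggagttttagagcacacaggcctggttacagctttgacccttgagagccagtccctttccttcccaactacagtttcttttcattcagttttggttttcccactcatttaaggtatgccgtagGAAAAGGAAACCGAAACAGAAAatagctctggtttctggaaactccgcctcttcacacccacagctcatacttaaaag
Rsad2: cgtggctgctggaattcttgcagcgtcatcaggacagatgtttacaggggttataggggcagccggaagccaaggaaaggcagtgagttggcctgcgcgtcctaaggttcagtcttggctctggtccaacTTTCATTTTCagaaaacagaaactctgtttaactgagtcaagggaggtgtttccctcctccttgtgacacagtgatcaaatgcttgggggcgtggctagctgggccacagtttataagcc
Irf1: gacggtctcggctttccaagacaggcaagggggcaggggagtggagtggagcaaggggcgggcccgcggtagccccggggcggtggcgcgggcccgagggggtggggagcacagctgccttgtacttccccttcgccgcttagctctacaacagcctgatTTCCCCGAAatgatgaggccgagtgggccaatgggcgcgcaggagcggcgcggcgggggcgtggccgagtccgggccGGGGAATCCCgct
E2f7: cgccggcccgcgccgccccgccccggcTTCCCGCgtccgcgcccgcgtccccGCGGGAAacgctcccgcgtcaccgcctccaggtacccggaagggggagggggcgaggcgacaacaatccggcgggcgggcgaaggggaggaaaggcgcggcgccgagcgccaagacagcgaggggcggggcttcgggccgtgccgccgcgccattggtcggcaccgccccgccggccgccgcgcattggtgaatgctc
They lie at chr5:92348890-92349139 (minus strand), chr3:142496684-142496933 (plus strand), chr4:156200819-156201068 (minus strand), chr12:26456453-26456702 (minus strand), chr11:53769764-53770013 (plus strand) and chr10:110745189-110745438 (plus strand). The Cxcl10 promoter holds 1 ISRE match that begins 213 bases before the start and 2 NF-kappaB matches, at 159 and 103 bases. Gbp5 holds 1 of each, at 165 and 77 bases, and Isg15 holds 3 ISRE matches in a row, at 78, 72 and 66 bases. Rsad2 has an ISRE match at 120 bases, and Irf1 has a GAS match at 90 bases and an NF-kappaB match at 13 bases. E2f7 has 2 E2F matches, at 223 and 198 bases. A match is a description of letters, and binding was not measured.

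All 6 of these genes were called, the first 5 higher and E2f7 lower. Cxcl10 (ENSMUSG00000034855, chromosome 5: 92346638 to 92348889), a chemokine for T cells, rose from 0.361, 0.103 and 0.213 to 2209, 1991 and 2044 CPM. Rsad2 (ENSMUSG00000020641, chromosome 12: 26442746 to 26456452), which encodes the antiviral enzyme viperin, rose from 1.83, 1.75 and 1.25 to 7380.5, 7734 and 7245 CPM, a 4595-fold change and the largest relative rise among the 15 leading gains. Gbp5 (ENSMUSG00000105504, chromosome 3: 142493978 to 142522344), a guanylate-binding protein, had 0.0402, 0.0617 and 0.0912 CPM in the vehicle replicates, a mean under the level of 3 counts, and 852, 871 and 949 CPM with LPS. The RefSeq start used for the Gbp5 promoter lies inside this GENCODE span, not at its edge. For Cxcl10, Rsad2 and Gbp5 the LPS libraries lay close together, and vehicle replicate 3 stayed with the other vehicle libraries.

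Several of the receptors with which macrophages sense microbes rose after LPS. Of the pattern recognition receptors, 18 of the 22 tested members rose and 1 fell, with a median log2 fold change of 2.42 beside -0.07 for all genes tested. Sensors of nucleic acids had the 5 largest rises of this list. Zbp1, a sensor of Z-form nucleic acids, went from 0.261, 0.288 and 0.426 to 244, 220.2 and 222 CPM (716-fold), Ifih1, which encodes the double-stranded RNA sensor MDA5, from 13.6 ± 3.37 to 1342 ± 47.0 CPM (98.5-fold), and Tlr3 from 5.34 ± 1.85 to 433 ± 87.0 CPM (81.6-fold). Dhx58, a partner of MDA5, rose 22.8-fold, and Ddx58, the RNA sensor RIG-I, also rose. The member that fell was Tlr13, and the 3 not called were Tlr4, Tlr8 and Tlr9. Tlr4, the LPS receptor itself, scattered within both groups, with 9.90, 8.70 and 62.6 CPM in the vehicle and 104, 107 and 20.3 CPM in the LPS replicates (adjusted p = 0.12 by edgeR). Cd14, which hands LPS to TLR4, rose from 551, 555 and 435 to 1305, 1196 and 1244 CPM (2.43-fold).

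Every subunit and inhibitor of NF-kappaB that was measured rose, 11 of 11 with a median log2 fold change of 3.08. Nfkbiz, a nuclear cofactor that permits a second wave of targets such as Il6, rose from 11.7, 11.0 and 20.4 to 1416, 1509 and 1256 CPM (97.4-fold). The precursor gene Nfkb2 rose from 41.3 ± 8.33 to 523 ± 15.4 CPM and Rel from 25.6 ± 9.59 to 241 ± 43.3 CPM. Nfkbia, the inhibitor that returns NF-kappaB to the cytoplasm, rose from 61.7, 64.1 and 42.0 to 591, 594 and 663 CPM (11.0-fold). Of the TNFAIP and TRAF genes 5 of 17 rose and 4 fell, near the 27.3% and 28.9% of all genes tested. On library totals 5 were higher and 8 lower, beside 13.0% and 53.6% of all genes. Traf1, an adaptor of TNF receptors, rose 75.4-fold from 5.50, 6.23 and 3.59 to 386, 374 and 401 CPM, and Tnfaip3, the ubiquitin-editing inhibitor A20, rose from 9.34, 4.95 and 7.33 to 231, 145 and 266 CPM. Traf4 fell 4.08-fold, from 10.6 ± 1.46 to 2.58 ± 0.284 CPM.

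Cytokine genes rose, and some of them rose from 0 or near 0 counts. Of the interleukins and growth factors tested, 23 of 27 rose, with a median log2 fold change of 4.75, and Il34 and Vegfa fell. Il1b, an inflammatory cytokine made as a precursor, had 0 counts in all 3 vehicle libraries and 31.9, 35.0 and 38.8 CPM with LPS, at least 496-fold higher. Edn1, which encodes the vasoconstrictor endothelin 1, also had 0 counts at rest and reached 23.1, 24.5 and 21.2 CPM, at least 323-fold higher. Csf2, the granulocyte-macrophage growth factor, went from 0.0402, 0 and 0 CPM, a mean under the level of 3 counts, to 19.5, 21.5 and 29.9 CPM. Ifnb1, which encodes interferon beta and is named here outside the naming rule with its value known, was at 0.0402, 0 and 0 CPM at rest and 5.05, 3.03 and 3.61 CPM at 6 h. Set per length, Ifnb1 reached 6.80 ± 1.78 TPM and Il6 406 ± 47.4 TPM with LPS.

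In the TNF superfamily 15 of the 27 tested members rose and 3 fell. Tnf itself, made by macrophages early after LPS, rose from 27.4, 30.3 and 21.4 to 2961, 2847 and 2907 CPM (110.0-fold, adjusted p = 2.0e-08 by edgeR). Tnfsf10, the death ligand TRAIL, went from 0.0402, 0 and 0 CPM, a mean under the level of 3 counts, to 89.9, 106 and 89.5 CPM. The receptor genes Cd40, which receives T cell help, and Fas, a death receptor, rose 59.1-fold and 51.9-fold, to 167 ± 5.59 and 109 ± 8.09 CPM. The 3 that fell were Tnfsf14, Tnfrsf11a and Tnfrsf22. Cytokine receptors were mixed, with 15 of 23 higher and 6 lower. Il15ra, which presents interleukin 15, rose 16.3-fold and Il13ra1 15.8-fold, whereas Il6ra, the receptor chain for interleukin 6, fell from 41.2, 42.7 and 27.6 to 4.05, 3.44 and 6.19 CPM.

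Chemokines among the largest gains included Cxcl2, a neutrophil attractant, which rose from 2.83, 2.96 and 2.22 to 3478, 3351 and 3293 CPM, or 1257-fold. Ccl12, a monocyte attractant, had 0 counts in vehicle cells and 6.56, 7.05 and 8.18 CPM with LPS, at least 102-fold higher.

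The interferon system rose at the level of its regulators and its products. Among interferon, its receptors and JAK-STAT genes, 18 of the 24 tested members rose and 2 fell. On library totals these counts were 12 higher and 6 lower. The kinase gene Jak2 rose from 40.0, 38.1 and 56.6 to 893, 916 and 877 CPM (20.0-fold). Inhibitors rose beside it, Socs3 from 6.87 ± 1.65 to 193 ± 5.97 CPM (28.0-fold) and Cish from 0.0803, 0.123 and 0 CPM, a mean near the level of 3 counts, to 18.4, 22.6 and 21.5 CPM. Of the interferon regulatory factors, 7 of 8 rose and Irf3 was not called, though it was lower on library totals and without vehicle replicate 3. Irf7, which amplifies type I interferon, rose from 8.71, 8.31 and 9.64 to 627, 567 and 546 CPM (65.3-fold, SE of log2 0.139, adjusted p = 2.0e-09 by edgeR). Irf1 (ENSMUSG00000018899, chromosome 11: 53770014 to 53778374) rose 13.2-fold from 9.05 ± 1.32 to 119.6 ± 13.0 CPM and Irf5 rose 10.1-fold. Irf2 rose 5.84-fold but was uneven, with 15.4, 15.3 and 57.7 CPM in the vehicle and 106, 249 and 159.8 CPM in the LPS replicates.

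Products of interferon signalling rose by large factors. All 21 guanylate-binding proteins and immunity-related GTPases, which attack vacuoles that hold microbes, rose, with a median log2 fold change of 9.33, and they also did so on library totals and with TPM. Gbp2b went from 0.241, 0.206 and 0.122 to 1329.6, 1352 and 1525 CPM. Iigp1 and Gbp11 had 0 counts in all vehicle libraries and reached 155 ± 3.76 and 34.3 ± 1.01 CPM, at least 2176-fold and 483-fold higher. All 14 genes of ISG15 conjugation and the PARP enzymes rose, with a median log2 fold change of 3.46. Isg15 (ENSMUSG00000035692, chromosome 4: 156199424 to 156200818), a ubiquitin-like protein attached to other proteins, rose from 7.95, 7.85 and 4.32 to 521, 496 and 631 CPM (81.5-fold). Its ligase gene Herc6 rose 40.5-fold to 514 ± 38.2 CPM and its deconjugating enzyme Usp18 rose 24.0-fold to 904 ± 35.8 CPM. Rnf213, a large ubiquitin ligase that coats bacteria, was abundant, with 349, 348 and 321 CPM at rest and 6802, 6745 and 5025 CPM with LPS.

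Of the IFIT, IFITM and OAS genes 16 of 18 rose and none fell. Ifit1, which binds foreign RNA ends, rose from 1.08, 1.21 and 0.821 to 1463, 1457 and 1595 CPM (1428-fold), Ifit2 379.9-fold to 3285 ± 164 CPM, and Ifit3 1551-fold to 445 ± 60.1 CPM. Cmpk2, a mitochondrial nucleotide kinase that lies beside Rsad2, rose 837-fold, from 3.37, 2.57 and 2.74 to 2569, 2482 and 2231 CPM. All 7 Schlafen genes rose. Slfn1 had 0 counts at rest and 276, 274 and 283 CPM with LPS, at least 3907-fold higher, while Slfn4 rose from 67.9 ± 9.11 to 2239.8 ± 70.9 CPM and Slfn5 from 0.339 ± 0.137 to 103 ± 10.3 CPM. The TRIM family was split, with 17 of 43 higher and 12 lower. On library totals 13 were higher and 22 lower, beside 13.0% and 53.6% of all genes tested. The Trim30 group rose, with Trim30a at 5.18, 5.41 and 7.85 CPM at rest and 343, 362 and 355 CPM with LPS, and Trim30c, with 0 counts at rest, at least 449-fold higher. Members of the GTPase, Schlafen, IFIT and Trim30 groups are close copies of each other, so counts between copies may be split unevenly by the authors' mapping.

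**Figure D3:**
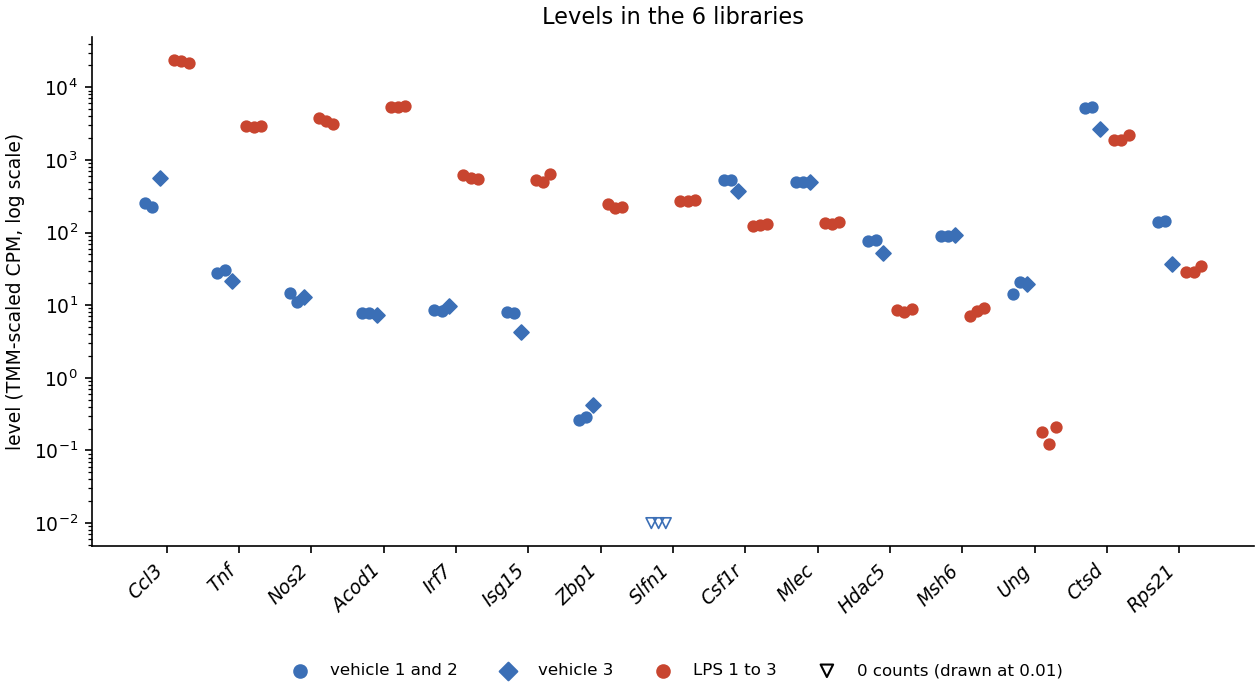
Levels (vertical, TMM-scaled CPM on a log scale) of 15 genes in each of the 6 libraries, with vehicle replicates 1 and 2 as blue circles, vehicle replicate 3 as a blue diamond, LPS replicates as red circles and libraries with 0 counts as open triangles. The groups do not overlap for any gene shown, but the 15 genes were picked with their values known. Over all genes tested, all LPS libraries lay above all vehicle libraries for 29.5% and below them for 31.3%. Vehicle replicate 3 sits with the other vehicle libraries for genes such as Nos2 and Msh6, and near the LPS libraries for Rps21.

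Raised genes often lay side by side on a chromosome. Of the 1094 genes raised at least 4-fold, 287 lay in 63 runs of at least 3 neighbouring tested genes that all rose at least 4-fold. The longest run, 21 genes on chromosome 1 from 85027954 to 85709998, holds Sp110, Sp140 and Sp100 and many predicted genes of the same cluster. The next, 17 genes on chromosome 1 from 173350879 to 174044411, holds Aim2 and the Ifi200 family, among them Ifi205, which had 0 counts at rest and 161, 164 and 185 CPM with LPS. Runs of 11 genes lay on chromosome 11 (48861968 to 49135387, with Irgm1, Tgtp1 and Ifi47) and on chromosome 7 (105824223 to 106604035, with Gvin1). The Schlafen run on chromosome 11 (82951349 to 83190216) held 10 genes, and the IFIT run on chromosome 19 (34550694 to 34650009) held 6, whose fold changes ran from 63.2 to 2474. On chromosome 14 (59244441 to 59440884) the 4 Phf11 genes lay beside Setdb2, and on chromosome 19 (11404770 to 11531256) a run held 4 Ms4a genes. Many of the runs named here are families of copied genes, so neighbours share sequence and are not independent.

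Some genes were switched on outright, going from at most 3 counts in every vehicle library to at least 1 CPM in every LPS library. This held for 69 genes, 53 of them protein-coding, and in total they held 0.000105%, 0.000108% and 7.35e-05% of counts at rest and 0.224%, 0.233% and 0.254% with LPS. Mx1, an antiviral GTPase, went from 0, 0.0411 and 0 to 240.4, 243 and 271 CPM, and Serpinb2, an inhibitor of plasminogen activators, from 0 counts to 23.3, 25.7 and 23.3 CPM, at least 339-fold higher. Serpina3f, a serine protease inhibitor, also rose from 0 counts, at least 534-fold. Silence at rest also held in vehicle replicate 3. Of 14 genes with 0 counts in vehicle replicates 1 and 2 and at least 10 CPM with LPS, 13 had 0 counts in vehicle replicate 3 and the other had 2, while any LPS library held at least 27139 counts of them.

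The reverse, from at least 1 CPM in every vehicle library to at most 3 counts in every LPS library, held for 15 genes, 13 of them protein-coding. Angptl4, a secreted inhibitor of lipoprotein lipase, had 7.37, 4.93 and 4.53 CPM at rest and 0 counts with LPS, at least 43.8-fold lower. Tmem86a, an enzyme of ether lipid breakdown, went from 13.5 ± 3.72 to 0.0550 ± 0.0477 CPM, and Tspan10, a tetraspanin, from 4.94, 5.20 and 2.01 to 0, 0 and 0.0831 CPM. Frat2, Klhl30 and Fbxo32 had 0 counts in all LPS libraries.

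Antigen presentation through MHC class I rose broadly. Of its genes and those of the immunoproteasome, 18 of 21 rose and none fell, with a median log2 fold change of 1.78. The peptide transporter gene Tap1 rose from 22.4, 31.5 and 16.6 to 259, 253 and 289 CPM (11.3-fold), and Nlrc5, the transactivator of these genes, from 55.3 ± 5.47 to 404 ± 31.8 CPM. The immunoproteasome subunits Psmb8, Psmb9 and Psmb10 rose 4.41-fold, 3.29-fold and 6.46-fold. On library totals 16 higher and 1 lower were called in this list. Only 5 MHC class II genes could be tested. Cd74, the invariant chain, rose 2.48-fold from 405, 402 and 424 to 1035, 976 and 1042 CPM and H2-Ab1 also rose, while H2-DMb2 fell.

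Surface receptors were reshaped in both directions. Fc receptors, lectins and paired receptors gave 20 rises and 7 falls among 36, and on library totals 16 higher and 13 lower. Clec4e, which encodes the mycobacterial glycolipid receptor Mincle, rose from 96.9, 102 and 101 to 1066, 1086 and 1084 CPM (10.8-fold). Fcgr4, an activating Fc receptor, rose 9.96-fold, and Siglec1, a sialic acid receptor, rose from 0.546 ± 0.336 to 13.6 ± 1.89 CPM. Scavenger and clearance receptors gave 6 rises and 6 falls of 15, and 4 higher and 7 lower on library totals. Msr1, a scavenger receptor for modified lipoproteins, rose from 15.8, 17.8 and 25.5 to 344, 362 and 362 CPM and the clearance receptor Axl from 0.241, 0.123 and 0.0912 to 29.0, 25.3 and 24.0 CPM. In contrast Gas6, the ligand of Axl, fell from 326, 318 and 219 to 88.6, 79.2 and 79.3 CPM and Scarb1, a receptor for high-density lipoprotein, fell 3.17-fold.

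Adhesion, complement and protease genes rose more often than they fell with TMM. Of integrins and adhesion genes 13 of the 20 tested members rose and 3 fell, but 8 higher and 5 lower were called on library totals and 5 higher and 4 lower with TPM. Cd44, the hyaluronan receptor, rose 11.2-fold from 95.8, 90.9 and 129 to 1186, 1282 and 1055 CPM. Icam1 and Itga5 rose 5.13-fold and 4.95-fold. Of complement and coagulation genes 8 of 16 rose and none fell, and on library totals 7 higher and 2 lower. Cfb, complement factor B, rose from 0.602, 0.637 and 0.122 to 58.9, 61.1 and 58.0 CPM, C5ar1, the C5a receptor, 70.7-fold, and F3, tissue factor, from 0.422, 0.0206 and 0.487 to 15.3, 17.3 and 18.7 CPM. In the protease and inhibitor list 13 of the 18 tested members rose and 2 fell. Mmp9, a gelatinase, rose from 1.99, 2.38 and 2.55 to 94.8, 75.9 and 65.1 CPM and Plaur, the urokinase receptor, from 19.5 ± 1.74 to 609 ± 18.5 CPM.

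Receptors for metabolites and lipids changed in both directions, with 9 higher and 8 lower of 25. Falls outnumbered rises on library totals (5 higher and 9 lower) and with TPM (4 higher and 10 lower), but by less than over all genes tested. Those gave 13.0% higher and 53.6% lower on totals, and 10.2% and 48.2% with TPM. The list's median log2 fold change was -0.26 on totals and -0.35 with TPM, beside -0.77 and -0.61 over all genes. Hcar2, the nicotinic acid and ketone body receptor, rose from 2.11, 2.28 and 2.25 to 81.3, 78.1 and 82.3 CPM and Gpr84, a receptor for medium-chain fatty acids, rose 15.3-fold. The adenosine receptor gene Adora2b rose 15.3-fold. Lpar5, a lysophosphatidic acid receptor, fell from 13.1, 14.8 and 15.4 to 0.774, 1.15 and 0.831 CPM.

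Transcription factors of the macrophage lineage and of activation gave 30 rises and 7 falls among 43, and 20 higher and 10 lower on library totals. Batf2 rose from 0.261, 0.493 and 0.639 to 52.8, 64.1 and 52.7 CPM, Atf3 from 23.8, 26.5 and 17.3 to 338, 347 and 372 CPM and Fosl1 from 22.6 ± 13.5 to 296 ± 28.2 CPM. Cebpa, a factor of myeloid differentiation, fell from 23.2, 24.4 and 19.6 to 1.87, 1.60 and 2.53 CPM (11.2-fold). Nuclear receptors fell more often than they rose, 10 against 5 of 24, and 2 higher and 16 lower on library totals. Rarb, a retinoic acid receptor, fell from 33.1, 28.5 and 29.5 to 0.410, 0.615 and 0.831 CPM and Nr1d2, a clock repressor, fell 5.26-fold, whereas Nr3c1, the glucocorticoid receptor, rose 3.17-fold. Among factors that destabilise mRNA, Zfp36, which encodes tristetraprolin, rose from 9.70, 11.3 and 15.1 to 407, 409.6 and 340.5 CPM and Zc3h12a, the RNase regnase-1, rose 25.7-fold. The related gene Zfp36l2 fell from 164, 167 and 252 to 32.2, 24.3 and 19.9 CPM.

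Modifiers of histones and DNA methylation gave 16 higher and 14 lower of 49 with TMM, near the 27.3% and 28.9% of all genes tested. On library totals 5 were higher and 28 lower, near the 13.0% and 53.6% of all genes, so the list as a whole followed the background. Setdb2, a methyltransferase of the Phf11 neighbourhood, rose from 13.7, 11.9 and 20.5 to 236, 239 and 203 CPM and the DNA demethylase Tet2 from 23.5 ± 8.07 to 213 ± 46.1 CPM. Hdac5, a class IIa deacetylase, fell from 75.6, 77.8 and 52.1 to 8.70, 8.08 and 8.97 CPM, and Uhrf1, which maintains DNA methylation at replication forks, from 144, 138 and 109.5 to 21.9, 22.5 and 23.3 CPM.

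Metabolic enzymes that define the activated macrophage were among the largest rises. Acod1, which makes itaconate from a citrate cycle intermediate, rose from 7.83, 7.81 and 7.39 to 5325, 5399 and 5440.0 CPM (701-fold, log2 9.45, SE 0.209, adjusted p = 1.9e-09 by edgeR). Nos2, inducible nitric oxide synthase, rose from 14.6, 11.2 and 13.0 to 3810.4, 3408 and 3112 CPM (266-fold) and Ptgs2, the inducible cyclooxygenase COX-2, from 8.55, 6.17 and 9.85 to 3941, 3825 and 3303 CPM (451-fold). For all 3 genes vehicle replicate 3 lay within or close to the range of the other vehicle libraries. Around Nos2, Ass1, which regenerates arginine, rose 7.89-fold and Gch1, the entry enzyme of tetrahydrobiopterin synthesis, 3.81-fold. Odc1, the entry enzyme of polyamine synthesis, rose from 138, 141 and 162 to 2904, 2696 and 2678 CPM (18.8-fold), while Srm and Amd1, the enzymes that follow it, fell. Around Acod1, citrate cycle genes fell more often than they rose, 11 against 4 of 29. Without vehicle replicate 3 the counts were 6 higher and 19 lower, with it as the only vehicle library 3 higher and 5 lower, and on library totals 2 higher and 25 lower, so the size of this lean depended on both. Sdhd, a subunit of succinate dehydrogenase, fell from 146, 152 and 71.2 to 39.7, 40.7 and 42.0 CPM, Pcx, pyruvate carboxylase, 3.10-fold and Pdk1, a kinase that restrains pyruvate dehydrogenase, 3.24-fold.

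Prostaglandin and leukotriene genes moved apart. Of the lipid mediator list 4 of 19 rose, namely Ptgs2, Ptges, Tbxas1 and Ch25h, and 8 fell, with 4 higher and 14 lower on library totals. Ptgs1, the constitutive cyclooxygenase, fell from 50.2 ± 0.985 to 19.9 ± 2.05 CPM, and Ltc4s, leukotriene C4 synthase, fell 4.72-fold.

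Metal and redox genes were mixed. The iron, copper and zinc list gave 12 rises and 6 falls of 22, and 9 higher and 10 lower on library totals. The NADPH oxidase and antioxidant list gave 11 rises and 9 falls of 31, near the 27.3% and 28.9% of all genes tested. On library totals it gave 3 higher and 19 lower, beside 13.0% and 53.6% of all genes. Lcn2, lipocalin 2, which binds bacterial iron carriers, rose from 35.7, 36.3 and 33.0 to 1052, 910.0 and 986 CPM and the metallothionein gene Mt2 from 215, 233 and 189 to 1158, 1113 and 1375 CPM. The ferritin light chain gene Ftl1 fell from 2274, 2562 and 1212 to 1049, 954 and 983 CPM, with vehicle replicate 3 close to the LPS libraries, and Steap3, an iron reductase, fell 6.16-fold. Cybb, the catalytic subunit of the phagocyte NADPH oxidase, rose from 82.4, 90.4 and 95.5 to 1134, 1174 and 1085 CPM and Sod2, mitochondrial superoxide dismutase, 4.44-fold. Gclc, the limiting enzyme of glutathione synthesis, fell from 143, 139 and 195 to 62.7, 61.7 and 60.8 CPM.

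Transporters of small molecules fell more often than they rose. Of 212 solute carriers tested, 89 fell and 50 rose, with a median log2 fold change of -0.43 beside -0.07 for all genes. On library totals 21 higher and 142 lower were called. Slc15a3, a lysosomal peptide and histidine transporter, rose from 13.6, 15.5 and 19.1 to 1048, 1075 and 985 CPM and the serotonin transporter gene Slc6a4 from 2.42 ± 0.420 to 53.7 ± 2.00 CPM. Slc5a3, which imports the osmolyte myo-inositol, fell from 404, 380.0 and 320.5 to 19.5, 16.6 and 14.5 CPM, and Slc6a6, which imports taurine, fell 1.95-fold. Slco4a1, an organic anion transporter among the 15 largest losses, fell from 976, 986 and 718 to 265, 253 and 249 CPM.

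Genes of DNA synthesis and repair fell together. Of 42 DNA repair genes 36 fell and 3 rose, Msh3, Polb and Wrn, with a list median of -1.52. The mismatch repair gene Msh6 fell from 90.9, 89.4 and 92.4 to 7.15, 8.32 and 9.18 CPM (11.1-fold, adjusted p = 3.3e-08 by edgeR), and the exonuclease gene Exo1 from 16.7, 15.3 and 12.7 to 1.37, 0.861 and 0.872 CPM. Ung, which removes uracil from DNA, fell from 14.1, 20.7 and 19.6 to 0.182, 0.123 and 0.208 CPM. With vehicle replicate 3 as the only vehicle library, 2 higher and 31 lower were called in this list. Nucleotide synthesis fell as well, 23 of 31 genes against 4 higher. Rrm2, the ribonucleotide reductase subunit made in S phase, fell from 94.4, 96.6 and 90.4 to 16.7, 15.3 and 14.8 CPM and Tk1, thymidine kinase, 5.83-fold. Ctps, which makes CTP, fell 4.68-fold.

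Cell cycle regulators followed. Of G1 cyclins, CDK inhibitors and E2F factors 15 fell and 4 rose of 25, the latter being Ccnd2, Cdk6, Cdkn1a and Rbl1. The activator gene E2f2 fell from 26.6, 26.7 and 26.9 to 2.14, 2.95 and 1.45 CPM, and Ccne2, cyclin E2, from 17.2, 13.9 and 31.0 to 2.50, 2.62 and 1.99 CPM. E2f7 (ENSMUSG00000020185, chromosome 10: 110745439 to 110787384), a repressor of the same family, fell 5.21-fold from 10.4, 9.21 and 17.4 to 3.05, 2.26 and 1.79 CPM. Kinesins, which include the motors of the mitotic spindle, gave 17 falls and 5 rises of 31, with Kif22, a chromosome motor, down 4.48-fold. In the MYC network, Myc rose from 0.161, 0.0617 and 0.517 to 14.8, 14.4 and 16.8 CPM and its antagonist Mxd1 from 6.10, 6.52 and 5.47 to 80.1, 82.9 and 89.1 CPM. Tfap4, a factor downstream of MYC, fell from 21.2, 20.8 and 24.2 to 0.182, 0.451 and 0.789 CPM and Mxd4 18.3-fold.

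Cell survival and death genes rose more often than they fell, 22 against 8 of 35, on both sides of the balance. Pim1, a survival kinase, rose from 19.1, 18.8 and 20.0 to 524, 494 and 482 CPM and Bcl2a1a, an anti-apoptotic BCL2 relative with near-identical copies, 21.3-fold. Casp4, the caspase-11 gene whose product binds LPS inside the cell, rose from 11.6, 11.1 and 17.7 to 256, 247 and 296 CPM and Mlkl, the executioner of necroptosis, from 19.6, 20.1 and 32.6 to 429, 433 and 457 CPM.

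**Figure D4:**
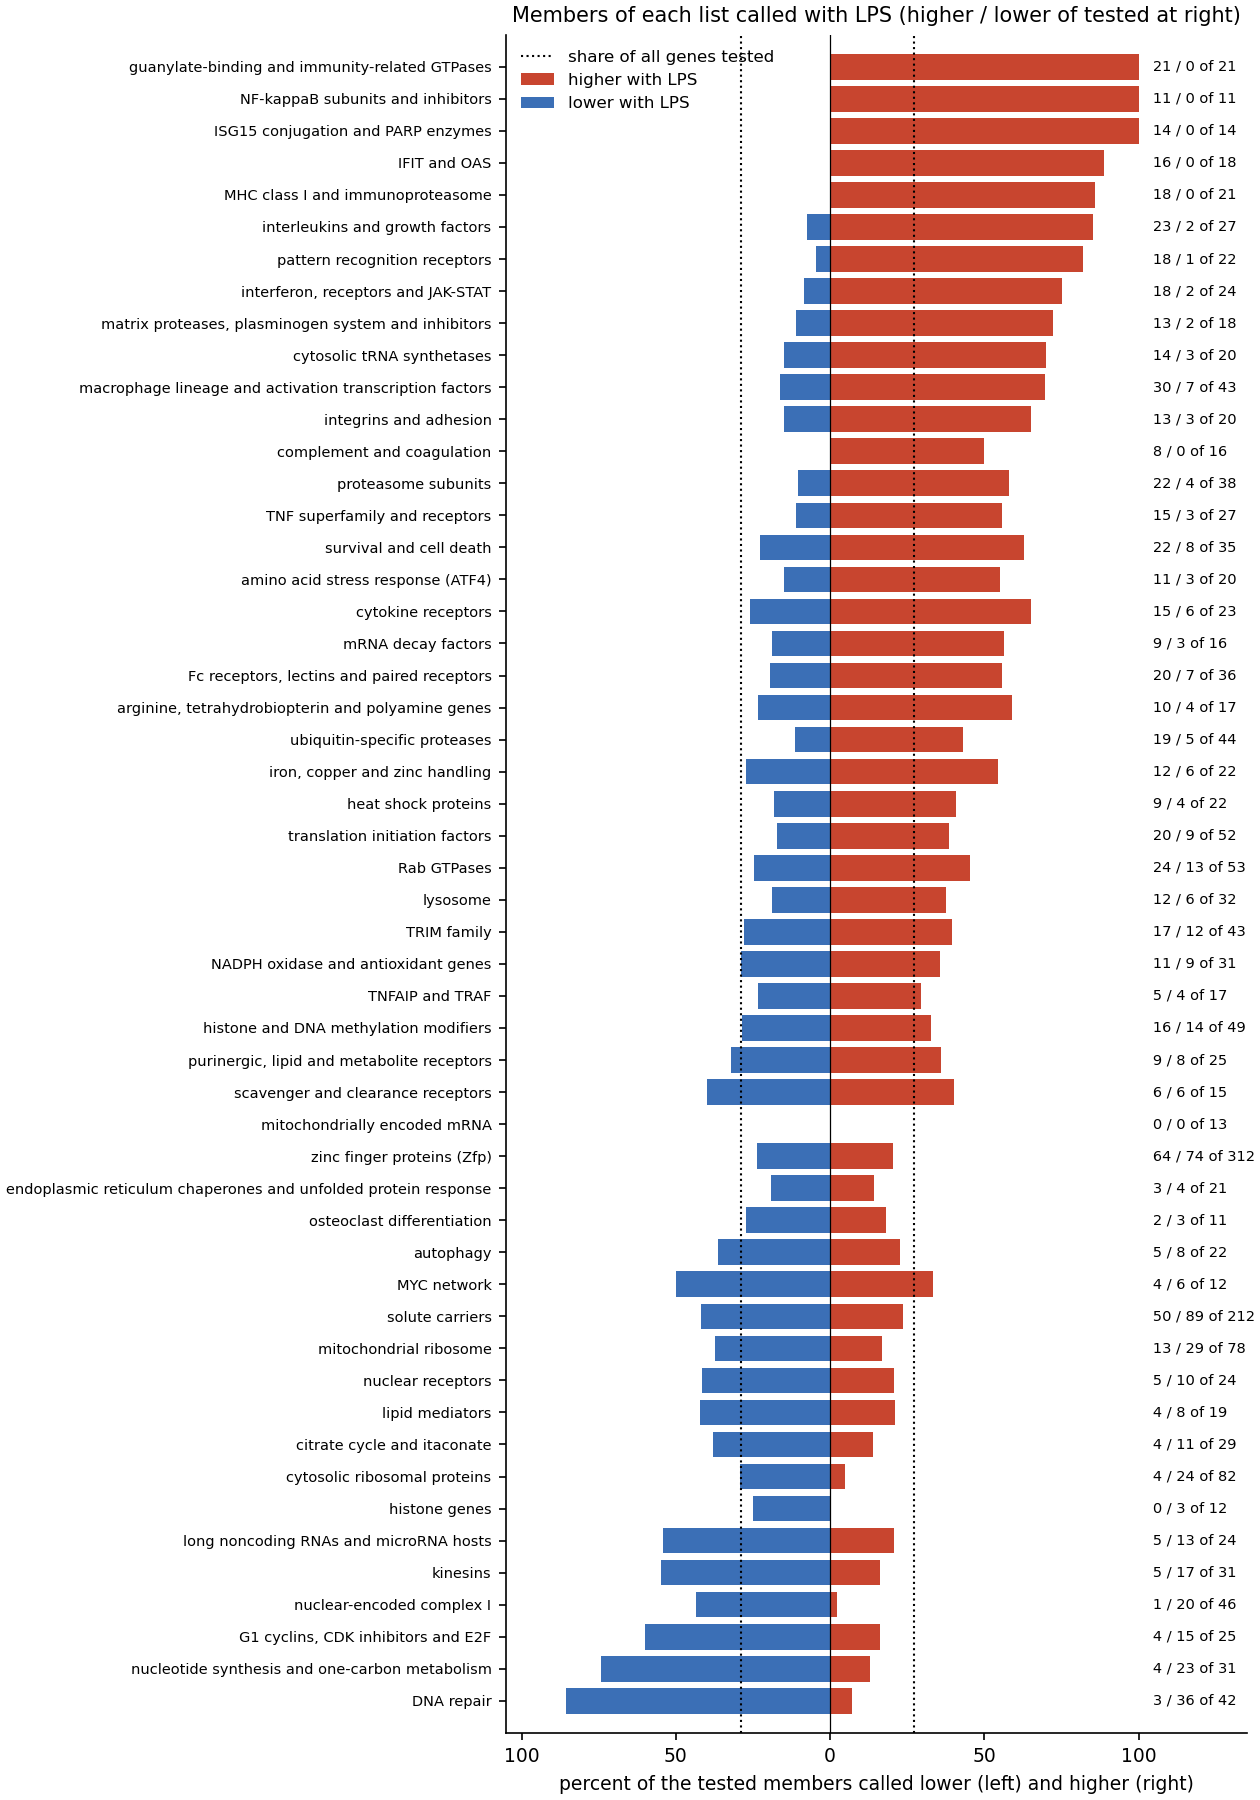
For each list with at least 10 tested members, bars give the percent of tested members called higher (red, right) and lower (blue, left) with LPS, the counts stand at the right, and dotted lines mark the shares over all genes tested, 27.3% higher and 28.9% lower. GTPases, NF-kappaB genes and ISG15 conjugation genes were called higher in full (21 of 21, 11 of 11 and 14 of 14), and DNA repair lies at the other end with 36 of 42 lower.

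In protein synthesis and folding genes, as over all genes tested, the direction depended on the scaling. Of the cytosolic tRNA synthetases 14 of 20 rose and 3 fell with TMM, but on library totals 2 higher and 4 lower were called. Rars, the arginine enzyme, rose 3.16-fold from 268, 273 and 344 to 841, 879 and 1081 CPM. Proteasome subunits gave 22 rises and 4 falls of 38 with TMM, and 5 higher and 11 lower on library totals. Heat shock genes gave 9 and 4 of 22, and 4 higher and 9 lower on totals, with Hsp90aa1 up 2.08-fold. In the endoplasmic reticulum list 3 of 21 rose and 4 fell with TMM, but 1 higher and 16 lower were called on library totals and 1 higher and 10 lower with TPM. Hspa5, the chaperone BiP, rose from 432, 660.4 and 351 to 1726, 1746 and 2044 CPM, while Eif2ak3, the stress kinase PERK, fell from 33.7, 33.5 and 31.0 to 10.3, 10.3 and 10.2 CPM. Asns, asparagine synthetase, a target of the factor ATF4, rose 2.48-fold and Ddit4, an inhibitor of mTORC1, fell 3.23-fold.

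Lysosome and autophagy genes showed no common direction. Of 32 lysosome genes 12 rose and 6 fell, and on library totals 3 higher and 17 lower. Ctsl, cathepsin L, rose from 469 ± 22.3 to 1177 ± 194 CPM, whereas Ctsd, cathepsin D and the largest loss of CPM, fell from 5120.5, 5306 and 2688 to 1858, 1901 and 2187 CPM, with vehicle replicate 3 nearer to the LPS libraries than to the other vehicle libraries. Autophagy genes gave 5 rises and 8 falls of 22, and 2 higher and 15 lower on library totals. Ulk1, the kinase that starts the process, fell 2.97-fold. In the Rab list, drawn by gene symbol and not limited to GTPases, 24 of 53 rose and 13 fell, and on library totals 6 higher and 20 lower. Rab7b fell 6.52-fold and Rab3il1, a Rab exchange factor, from 38.2, 42.2 and 27.5 to 2.28, 3.90 and 3.03 CPM.

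Ribosomal and respiratory chain genes depended on vehicle replicate 3. Cytosolic ribosomal protein genes gave 24 falls and 4 rises of 82, but without vehicle replicate 3 5 higher and 65 lower were called, and with it as the only vehicle library 0 higher and 1 lower. Rps21 shows the pattern, with 140.4, 145 and 36.8 CPM in the vehicle and 29.0, 28.6 and 34.7 CPM in the LPS replicates. Nuclear-encoded complex I genes gave 20 falls and 1 rise of 46, 1 higher and 34 lower without vehicle replicate 3 and 0 higher and 2 lower against it alone. Ndufa2 went from 73.2, 72.0 and 23.2 to 20.4, 19.6 and 20.1 CPM. In the mitochondrially encoded mRNAs the dependence ran the other way. None of the 13 was called by edgeR's quasi-likelihood test, also at an unadjusted p under 0.05, while DESeq2 called 1 and limma voom 2 of them higher, and without vehicle replicate 3 all 13 were higher. With vehicle replicate 3 as the only vehicle library 0 higher and 1 lower were called, and the median log2 fold change turned from 3.00 to -0.43. The cytochrome oxidase mRNA mt-Co1 had 10584, 10403 and 42354 CPM in the vehicle and 44642, 47157 and 47969 CPM in the LPS replicates. The mitochondrial share of a library is almost wholly these mRNAs, 21.8% of counts out of 21.9% in vehicle replicate 3. That share also moved with the ribosomal protein and complex I genes, and its part in those was not tested.

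For genes changed at least 2-fold, the place of vehicle replicate 3 depended on how the genes were chosen. It was measured on a log2 scale with 0.1 CPM added, where 0% is the mean of vehicle replicates 1 and 2 and 100% the mean of the LPS libraries. For the 2361 genes raised at least 2-fold vehicle replicate 3 stood at a median of 9.01% and for the 2501 lowered ones at 15.6%, and it lay nearer to the LPS libraries for 267 and 338 of them. These genes were chosen with vehicle replicate 3 in the vehicle group, which favours such a place. Among genes chosen without that library, the medians were 18.3% for 2642 raised and 23.2% for 2866 lowered genes, and it lay nearer to the LPS libraries for 642 and 684. For genes raised at least 16-fold the median was 0% by either choice. Of the 408 chosen with vehicle replicate 3, 2 lay nearer to LPS, and of the 418 chosen without it, 13.

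Named noncoding RNAs fell more often than they rose. Of the named long noncoding RNAs and microRNA host genes, 5 of 24 rose and 13 fell. Ptgs2os2, a transcript beside Ptgs2, rose from 1.61, 1.54 and 1.28 to 18.9, 17.9 and 21.3 CPM, and Mir155hg, the host of the inflammatory microRNA miR-155, also rose. Among those that fell were 7 small nucleolar RNA hosts of the Snhg family, such as Snhg15, which fell 3.82-fold from 15.3, 15.3 and 8.12 to 3.46, 3.77 and 2.91 CPM, and Snhg20, which fell 3.25-fold. Without a stated strand setting, reads of a gene and of an overlapping antisense transcript cannot be told apart.

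The raised and lowered genes differed in GC content and genomic span, which the comparison did not use. Median GC content of the longest transcript was 47.0% for genes raised at least 2-fold, 52.8% for lowered genes and 49.5% for all genes tested. Median genomic span was 21922 bases for raised and 14614 bases for lowered genes, beside 17604 for all, while median transcript length differed little (3076, 2964 and 2976 bases). The longer span did not hold for the largest rises. Genes raised at least 16-fold had a median span of 14081 bases and a median GC content of 46.8%. The resting level is part of the fold change that chose these genes, so it is a description, with a median of 10.8 CPM in vehicle cells for raised genes, 12.8 CPM for lowered genes and 16.6 CPM for all.

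Promoter letters differed as well. In the 300 bases around the RefSeq start (250 before and 50 after), an ISRE match was present in 8.78% of 1480 raised, 2.20% of 1726 lowered and 2.38% of 6224 other protein-coding genes tested, against 3.49% of all 27025 promoters in the table. The NF-kappaB consensus was present in 7.84%, 5.39% and 4.18%, against 4.35% of all promoters, and AP-1 (TGANTCA) in 7.91%, 5.39% and 4.26%, against 7.93%. TATAAA was found in 11.8%, 6.49% and 5.82%, against 14.2%, and GCGGGAA, the E2F site, in 6.55%, 10.7% and 8.44%, against 4.66%. Promoters poor in CpG, with an observed to expected ratio under 0.4, made up 28.3% of raised, 15.1% of lowered and 12.3% of other genes, against 51.0% of all promoters. Among the 1480 raised genes, the 130 with an ISRE match had a median log2 fold change of 3.63 and the 1350 without one 1.68. The corresponding medians were 1.94 and 1.74 with and without an NF-kappaB match. A promoter was found for 80.3% of raised, 81.6% of lowered and 82.2% of other genes, and for less than 80% of those raised at least 4-fold, so no share is given for these.

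**Figure D5:**
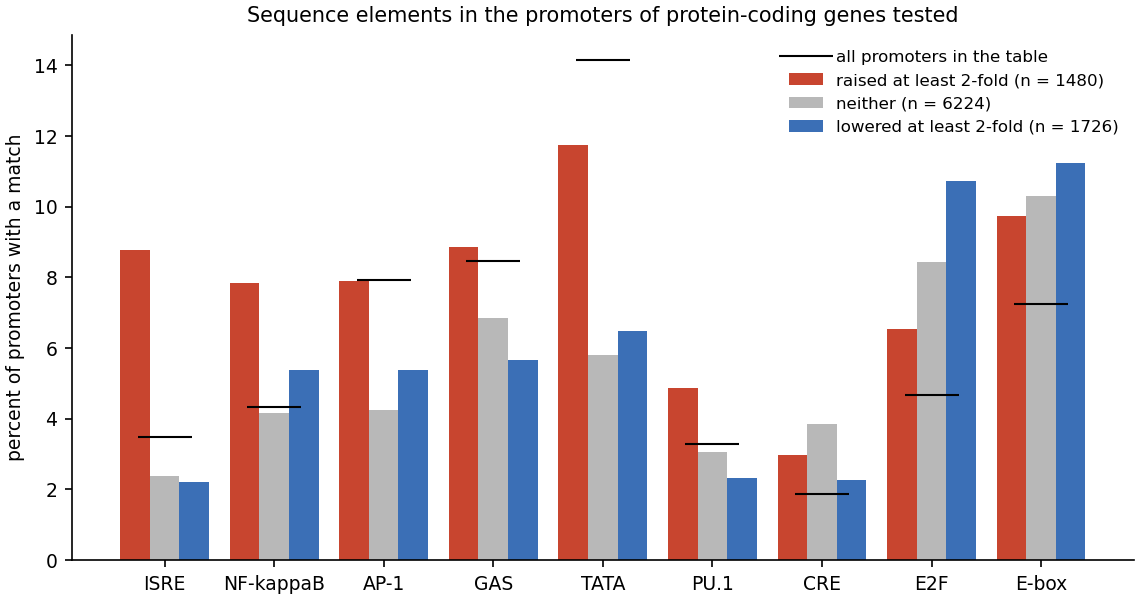
Bars give the percent of promoters (300 bases, both strands) with at least 1 match to each element, for protein-coding genes raised at least 2-fold (red), lowered at least 2-fold (blue) and neither (grey), and black lines give the share of all promoters in the RefSeq table. The ISRE stands at 8.78% in raised genes against 2.20% and 2.38% in the other groups, and the E2F site is highest in lowered genes at 10.7%.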

How the data were processed

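Polyadenylated RNA of 9 RAW 264.7 cultures was sequenced, and the 3 LPS and 3 vehicle libraries are compared. The authors deposited raw counts per gene and TPM values per gene. Trimmomatic 0.36, HISAT2 2.0, StringTie 1.3.3b and the mm10 build are named, per the submitters' processing notes; how reads were counted, with which annotation, strand setting and treatment of multiply mapped reads, is not given in the sources used here. Of 51826 identifiers in the count table, 51633 were found in GENCODE M21.

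Genes were kept by edgeR's filterByExpr (14458 of them) and fitted with edgeR 4.0.16 (R 4.3.3), TMM factors and a term for each of the 3 groups over all 9 libraries. LPS was tested against vehicle with the quasi-likelihood F test and Benjamini-Hochberg adjustment, with a threshold of 0.05, after a check on simulated counts. Alternatives used limma 3.58.1 and DESeq2 1.42.0, other scalings and filters, and fewer libraries. No pair of libraries agreed within sampling noise. The members and lists were chosen with earlier results of these data known.

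Genes named are, in each list, up to 4 called members of the largest absolute log2 fold change with at least 10 CPM in the higher group (the 2 most abundant where none was called), the 15 protein-coding genes of the largest gain and the 15 of the largest loss of CPM, the 15 switched on with the highest TPM in LPS cells, and the 8 longest runs of raised neighbours. Predicted genes, pseudogenes and genes that share a symbol were left out. Cxcl10, Ifnb1, Tlr4, the genes switched off, the shorter runs and the members listed beside a count were chosen outside this rule with their values known. Promoter sequences are RefSeq's, on GRCm38.p6.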

Additional observations from a re-analysis of the deposited data

How the results depend on the processing

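On library totals 1879 genes were higher and 7744 lower, and at least 2-fold 1273 and 5568. A limma fit of log2(TPM + 1) gave 1476 and 6962, and at least 2-fold 928 and 4567; with a pseudocount of 0.1 they were 1481 and 6960, and 1185 and 5727; without a filter 1503 were higher, and at least 2-fold 909 higher and 3998 lower. Fth1 had a log2 fold change of -0.0342 in all 3 TPM fits. The Rbl1 log2 fold change was -0.143 on library totals and -0.238 to -0.246 in the TPM fits, and the Wrn log2 fold change was -0.0189 and -0.235 to -0.264. The Tlr9 log2 fold change, not called with all libraries, was -0.165 on library totals, -0.199 to -0.248 in the TPM fits and -0.158 against vehicle replicate 3 alone. Other settings stayed within 1.5 times the counts given, and leaving out 1 library at a time gave 3253 to 4451 higher and 3605 to 5090 lower, and at least 2-fold 2062 to 2708 and 2373 to 2998, with the most calls without vehicle replicate 3. The cause of these shifts was not tested.

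Deviations of same-numbered vehicle and LPS libraries correlated at -0.04, -0.10 and -0.14, and those of other vehicle and LPS pairs at -0.06 to 0.12. With 3 libraries per group, and vehicle replicate 3 standing apart, these values cannot decide whether the replicate numbers pair the samples. With the replicate block 3910 genes were higher and 3930 lower. Tlr4, Tlr9 and mt-Co1, not called with all libraries, were higher without vehicle replicate 3, and mt-Co1 also with the block, with DESeq2, limma voom and a term for the mitochondrial share. Genes near 0 counts have the least certain folds at a depth of 27784737 to 35138718 counts.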
